A study of Mus musculus with 24 samples.

Results

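The clustered protocadherins are 57 protein-coding genes on mouse chromosome 18, taken as every gene there whose symbol starts with Pcdha, Pcdhb or Pcdhg, of 21627 protein-coding genes in the RefSeq table for GRCm38.p6, the assembly that mm10 names. They form the alpha cluster of 14 genes (chromosome 18, 36930285 to 37188897), the beta cluster of 22 (37264998 to 37521419) and the gamma cluster of 21 (37661775 to 37841873). Every ATAC-seq summit from 200 kb left of Pcdha1 to 200 kb right of the gamma cluster was used. ATAC-seq marks open DNA by the insertion of sequencing adapters with a transposase, and a summit is the point of highest signal in a peak. The window held 695 of 518537 summits, which joined across lists into 115 sites of 128693 in the genome. The rule for genes and window uses names and positions and no measured value, although the gene family was taken up with earlier results of these data known.

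Clustered protocadherins are cadherin-like adhesion proteins best known from neurons. Each neuron switches on a few of them, and the resulting combination acts as a surface identity in self-recognition. In the alpha and gamma clusters every gene has its own first exon with its own promoter, spliced to exons shared by the whole cluster, while beta genes are mostly single-exon genes. Most promoters carry a site for CTCF, a DNA-binding protein that with cohesin folds chromatin into loops and joins promoters to enhancers lying outside the arrays. The last genes of the alpha and gamma clusters, called C-type, are regulated apart from the others. All 3 clusters are transcribed from left to right in mm10, so the left bound of a member was taken as its start.

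The cells were the established mouse embryonic stem cell line A2lox.cre, which carries a docking site for inducible transgenes, in 24 samples. Each of 12 time points had 2 biological replicates, namely the 2i stage, in which inhibitors hold cells in naive pluripotency, then each day of cardiac differentiation from day 0 (D0) until D8, and lastly D10 and D15. The labels call 2i cells embryonic stem cells, D0 to D8 intermediates, and D10 and D15 cardiomyocytes, and give no other genotype or agent. Both replicates of a time point share 1 deposited peak list, so no value has a replicate spread, no difference between time points was tested, and cell composition and accessibility per cell cannot be told apart. As a check of the labels, the naive pluripotency gene Zfp42 had a start peak from 2i to D8 and none at D10 or D15. Tnnt2, which encodes cardiac troponin T, had none from 2i to D4 and had it from D5 to D15. Most of the other genes checked did not split this way. Of 6 cardiomyocyte genes, Actn2 and Ryr2 were called in all 12 lists, Nkx2-5 at D2, D3 and from D5 to D8 but not at D10 or D15, Myh7 at D5 only and Myh6 in none. Of 5 naive genes, Nanog was called at 2i, D1, D2 and D3, Esrrb in 9 lists up to D10, Tfcp2l1 in all 12 and Dppa3 in none.

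The lists held 31324 peaks at D1 to 66993 at D7, with 56053 at D4, 32791 at D6, 32641 at D10 and 36248 at D15. The labels do not state read depth. Its nearest trace in the lists is the −log10 p that the authors' peak caller gave to peaks of about 5-fold enrichment, whose median was 7.69 at 2i and 7.71 at D4, the lowest values, and 11.6 at D3, the highest. A place that is not called is therefore not shown to be closed. Neighbouring protocadherin genes are also alike in sequence, and how reads that match several of them were handled is not stated in the labels, so its part in the calls was not tested.

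Most clustered protocadherins had an open start at some point of the course, but rarely throughout. A summit within 1 kb of the start, called a start peak below, was found in at least 1 list for 41 of 57 members (71.9%), against 70.8% of 17273 other protein-coding genes, a share near the background. Only 2 of 57 members had it in all 12 lists, against 48.4% of the other genes. It was found in 1 to 11 lists for 39 members (68.4%), against 22.4% of the other genes. The median member had a start peak in 3 lists and the median of the other genes was 11. Per list, start peaks were found for 12 members at 2i and 17 at D0, then 10 at D1, 22 at D2 and 15 at D3, then 31 at D4, 32 at D5 and 8 at D6, then 30 at D7 and 20 at D8, and lastly 14 at D10 with 8 at D15. The share of the other genes was 58.3% at 2i and 58.9% at D0, then 54.1% at D1, 63.6% at D2 and 64.6% at D3, then 62.2% at D4, 63.3% at D5 and 61.8% at D6, then 65.9% at D7 and 64.4% at D8, and lastly 59.2% at D10 with 58.5% at D15. The highest member count, 32 of 57 at D5, was 56.1%, so the members were below the other genes in every list. No summit lay within 1 kb of the starts of more than 1 member.

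The clusters differed from each other in these counts. In the gamma cluster 20 of 21 genes had a start peak in some list and 13 had it in 6 or more, against 62.6% of the other protein-coding genes. In the alpha cluster 13 of 14 genes had it in some list and 3 in 6 or more. In the beta cluster 8 of 22 genes had it in some list and 1, Pcdhb1, in 6 or more. Pcdha6, Pcdhgc5 and 14 beta genes had it in no list.

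**Figure D1:**
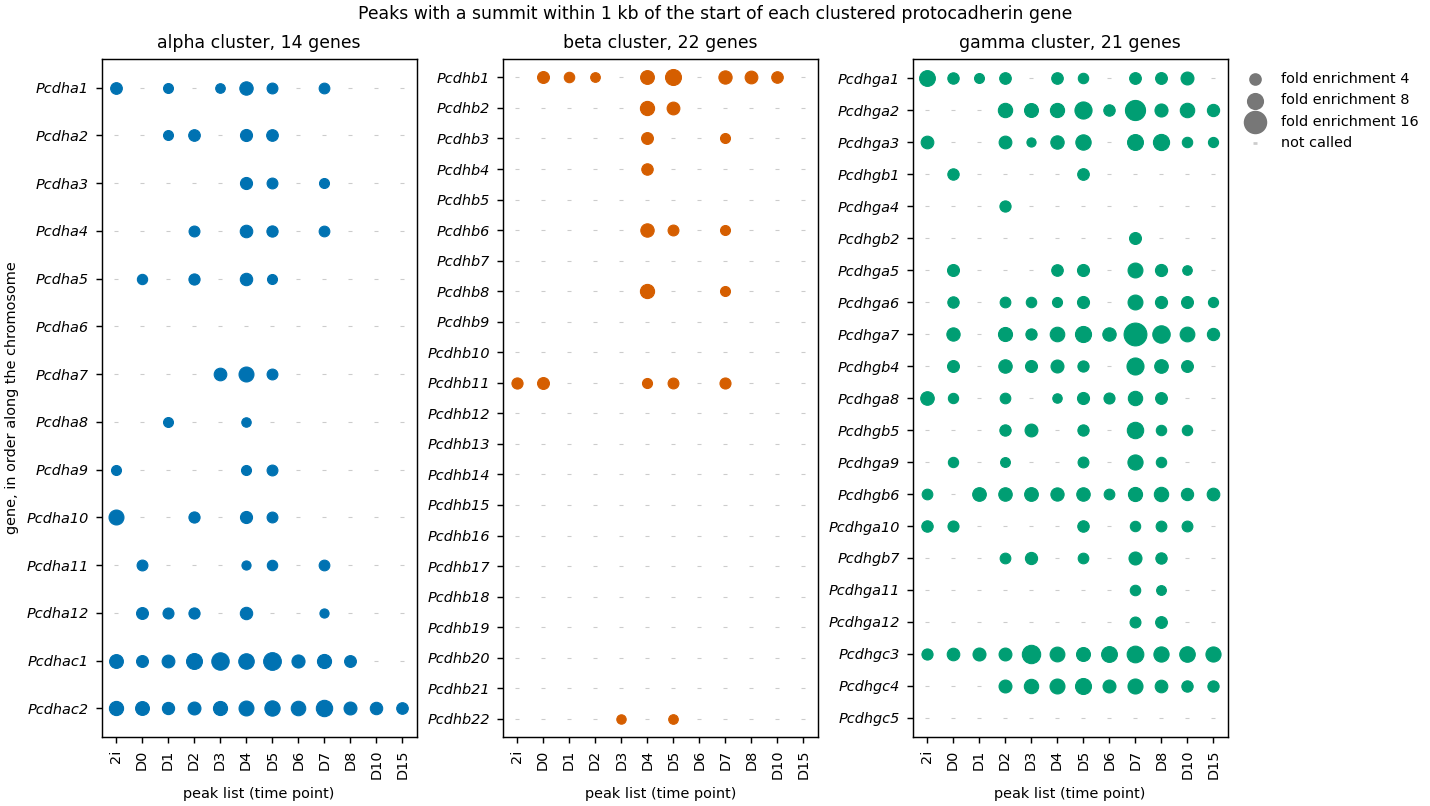
Start peaks of each member (rows, in order along the chromosome) in each of the 12 peak lists (columns), with the dot area showing the authors' fold enrichment of the highest summit within 1 kb of the start, a value that belongs to its own list. The alpha and beta columns are fullest at D4 and nearly empty at D10 and D15, while 12 gamma genes are still called at D10.

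The alternate alpha genes, Pcdha1 to Pcdha12, which make up the stochastically chosen part of that cluster in neurons, were called in the largest number at D4. Of these 12 genes, 3 had a start peak at 2i and 3 at D0, then 4 at D1, 5 at D2 and 2 at D3. At D4 11 had it and at D5 9. At D7 5 had it, and none had it at D6, D8, D10 or D15. Pcdha6 was the gene without it at D4. With the 2 C-type genes the alpha cluster had 13 of 14 starts called at D4 (92.9%), against 62.2% of the other protein-coding genes, and 1 of 14 at D15, against 58.5%. The D4 list is long but of low statistical weight, and D6 and D10 are short lists, so list length was held equal next.

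With the same number of top peaks taken from each list, 8 of the 12 alternate alpha genes had a start peak at D4, 4 each at D1 and D2, and 1 each at 2i, D0, D3 and D5. None had it from D6 onwards. In these equal lists the D4 share was 66.7%, against 54.5% of the other protein-coding genes. In every other list it was at most 33.3%, while the other genes ranged from 52.3% at 2i to 63.0% at D3. When peaks needed a −log10 q of 5 or more, 8 had it at D4, 1 each at 2i, D3 and D5, and 0 in the other 8 lists. With that minimum 54.6% of the other genes had a start peak at D4, within a range of 46.3% at D1 to 64.2% at D7. D4 had the most calls in all 3 sets of peaks, whereas the 9 calls at D5 became 1 in both smaller sets. When the peak interval had to cover the start itself, 5 were called at each of D4, D5 and D7.

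The alpha start peaks at D4 were near the middle of that list. Those of the 13 called alpha genes, C-type genes included, had fold enrichments of 2.85 to 8.19 with a median of 5.22, against a median of 4.77 over all D4 peaks, and a median of 42.3% of the D4 peaks were higher. At D5 the 11 called alpha genes had a median of 4.01, against 5.54 over all D5 peaks. Pcdha7 had the highest of the alternate genes at D4, 7.63, which 18% of the D4 peaks exceeded. Pcdha10 had 7.62 at 2i, exceeded by 16.5% of the 2i peaks. Pcdha1 was called in 6 lists, the most of the alternate alpha genes, with enrichments of 3.16 to 6.10. Pcdha8 was called at D1 and D4 only, with at most 3.36.

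The C-type alpha genes had peaks through most of the course. Pcdhac2 had a start peak in all 12 lists, with fold enrichments of 6.86 at 2i and 6.53 at D0, then 5.1 at D1, 5.69 at D2 and 6.79 at D3, then 7.58 at D4, 7.97 at D5 and 7.18 at D6, then 9.13 at D7 and 5.68 at D8, and lastly 5.24 at D10 with 4.58 at D15. Each of these values was exceeded by 18.5 to 59.9% of the peaks of its own list. Pcdhac1 was called in the 10 lists from 2i to D8, with enrichments of 4.75 to 10.7, and not at D10 or D15. Its site (37089450 to 37090453) is the only alpha site of 22 that was called at both 2i and D0 and at neither D10 nor D15, a class called early-lost here. Genome-wide, 9.56% of sites were early-lost.

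The beta genes showed a second position that their starts did not. Start peaks were found for 7 of 22 beta genes at D4, 5 at D5, 5 at D7, 2 at D0, 1 each at 2i, D1, D2, D3, D8 and D10, and 0 at D6 and D15, against 54.1 to 65.9% of the other protein-coding genes per list. Pcdhb1, the first gene of the cluster and its most often called start, had a start peak in 8 lists, with 4.82 at D0, 3.74 at D1, 3.19 at D2, 6.49 at D4, 8.69 at D5, 5.99 at D7, 5.54 at D8 and 4.56 at D10. Pcdhb11 was called in 5 lists, Pcdhb6 in 3 (D4, D5 and D7), Pcdhb2, Pcdhb3, Pcdhb8 and Pcdhb22 in 2 each, and Pcdhb4 at D4 only. Pcdhb22, the last gene of the cluster, was called at D3 and D5.

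Most beta summits instead lay about 2 kb inside the genes. Between 1.5 and 2.5 kb right of the start, a stretch chosen after the summits were seen, 19 of 22 beta genes had a summit in at least 1 list, against 7.31% of the other protein-coding genes, measured downstream of their starts. Of all 22 beta genes, 13 had a summit there and no start peak in any list, against 1.6% of all the other genes. Among genes with a summit there, those without a start peak were 13 of 19 in beta and 277 of 1263 of the others. The 77 beta summits there had a median distance of 2057 bp from the start with quartiles of 1990 and 2197 bp. In that stretch 6 of 14 alpha genes and 3 of 21 gamma genes had a summit. The alpha count rests on D4: it was 2 without the D4 list, 1 with a −log10 q of 5 or more and 0 with equal numbers of peaks. In the beta genes, the median distance of these summits to the annotated right end of the gene was 558 bp in Pcdhb10, the shortest, and 3469 bp in Pcdhb16, the longest.

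**Figure D2:**
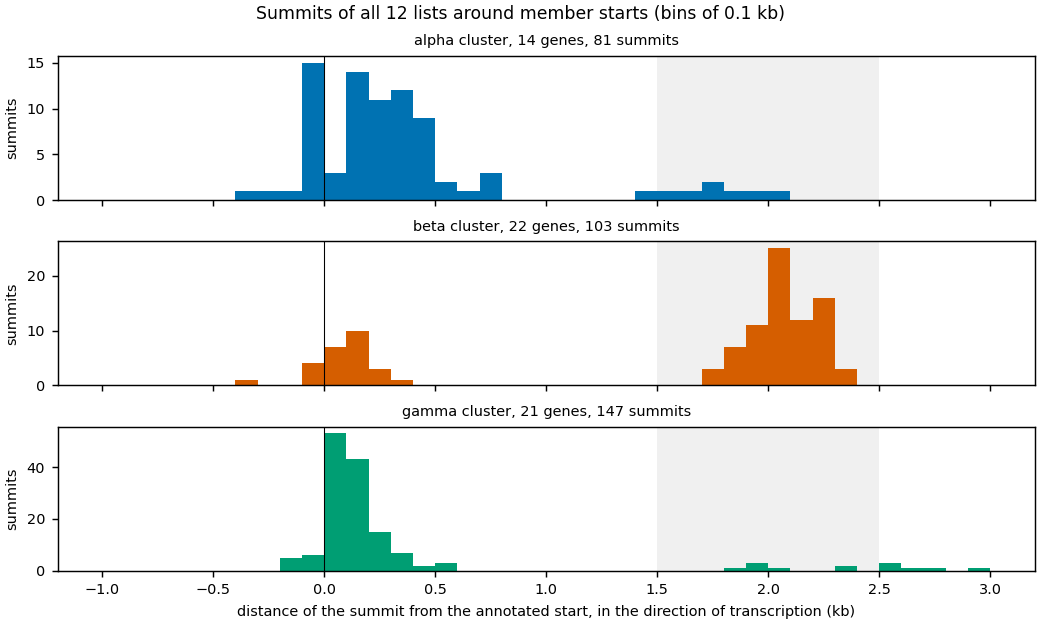
Number of summits from all 12 lists by their distance in kb from the annotated start of a member, in bins of 0.1 kb, for each cluster. Summits from 1 kb left to 3 kb right of each start are shown, with the stretch from 1.5 to 2.5 kb shaded. Alpha and gamma summits gather just right of the start, and beta summits gather near 2 kb, with a median of 2057 bp inside the shaded stretch.

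The beta summits inside the genes were called early and in the middle of the course. They were found in 10 beta genes at 2i and 6 at D0, then 1 at D1, 14 at D2 and 10 at D3, then 17 at D4, 7 at D5 and 2 at D6, then 7 at D7 and 1 at D8, and in none at D10 and D15. Pcdhb14 and Pcdhb19 had inner summits in the most lists, 8 each. The fold enrichments were 3.91 to 7.71 for Pcdhb14, called from 2i to D5 and at D7, and 3.44 to 6.86 for Pcdhb19, called at 2i, D0 and from D2 to D7. Pcdhb17 had the inner summit in 7 lists, and Pcdhb13 and Pcdhb21 in 6 each. Pcdhb15 had neither a start peak nor an inner summit in any list.

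Start and inner summits of a beta gene were seldom called in the same list. At D4, 4 beta genes had the start peak alone, 14 the inner summit alone and 3 both, so that 21 of 22 had either. In every other list no beta gene had both. Within the D4 list the beta start peaks had a median fold enrichment of 6.10, with a median of 30.3% of the D4 peaks higher, and the inner summits 4.68, with 51.1% higher. Within the D2 list the inner summits had a median of 4.33, with 65.8% of the D2 peaks higher. With the −log10 q minimum of 5, 10 beta genes had an inner summit in some list, and with equal numbers of peaks 13 did. The share of the other genes under these settings is not given here.

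More starts were called in the gamma cluster than in either other cluster in every list except D1 and D4, where alpha had more. As a share of its 14 genes, alpha was also above gamma at 2i and D5. Start peaks were found for 6 of 21 gamma genes at 2i and 10 at D0, then 3 at D1, 14 at D2 and 10 at D3, then 11 at D4, 16 at D5 and 6 at D6, then 18 at D7 and 17 at D8, and lastly 12 at D10 with 7 at D15. At D7 this was 85.7% of the cluster, against 65.9% of the other protein-coding genes. At D10 it was 57.1%, against 59.2%, and at D15 33.3%, against 58.5%. At D10, 12 gamma starts were called beside 1 alpha start and 1 beta start. With equal numbers of peaks the D10 counts were 12, 1 and 1, and with the −log10 q minimum they were 8, 1 and 1. Gamma calls were not confined to late lists. With equal numbers of peaks the whole gamma cluster held 18 summits at each of D3, D8 and D10. It held 16 at each of D2, D5 and D7, 9 at D15 and 8 at 2i. Whether the clusters differ in their course beyond chance was not tested, since members of a cluster share their lists and neighbouring sequence.

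**Figure D3:**
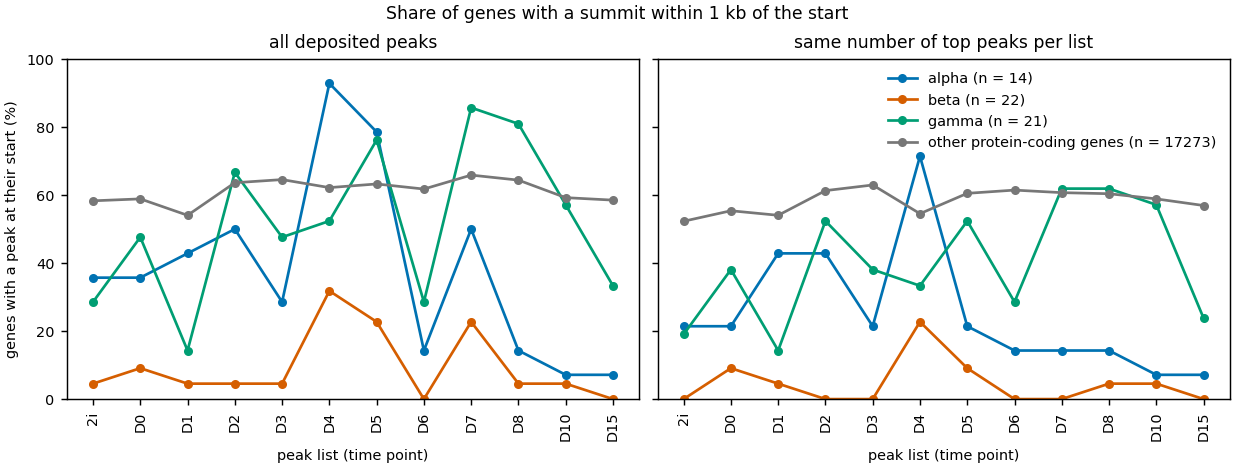
Percentage of genes with a summit within 1 kb of the start in each peak list, for the 3 clusters and 17273 other protein-coding genes, with all deposited peaks (left) and with the same number of top peaks per list (right). Alpha is highest at D4 in both panels, and gamma at D10 is at 57.1% in both.

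Of the 12 gamma A genes 8, and of the 6 gamma B genes 3, had a start peak in 6 or more lists. Pcdhga7 had the tallest peak of any member start. Its fold enrichments were 6.02 at D0, 6.74 at D2, 4.30 at D3, 7.25 at D4, 8.81 at D5 and 6.11 at D6, then 17.8 at D7 and 10.4 at D8, and lastly 7.41 at D10 with 5.12 at D15, and 0.848% of D7 peaks were higher than its own. Pcdhgb6 was called in 11 lists, all except D0, with enrichments of 3.88 to 7.05. Pcdhga2 was called from D2 to D15, with 4.45 to 13.8, and in none of 2i, D0 and D1.

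The first gamma gene, Pcdhga1, was called in 9 lists with its highest enrichment, 8.47, at 2i. Pcdhga3 and Pcdhga6 were also called in 9 lists, Pcdhgb4 and Pcdhga8 in 8, Pcdhga5, Pcdhgb5 and Pcdhga10 in 6, and Pcdhga9 and Pcdhgb7 in 5. At the low end were Pcdhgb1, called at D0 and D5, Pcdhga4, called at D2, and Pcdhgb2, called at D7. Pcdhga11 and Pcdhga12, the last genes before the C-type genes, had start peaks at D7 and D8 only. A site 2.71 kb right of the Pcdhga12 start was called in 5 lists, 2i, D2, D3, D7 and D8. Its highest enrichment was 6.94 at D3, and it lies outside the stretch from 1.5 to 2.5 kb. Gamma start summits lay close to the annotated start, at a median of 104 bp to its right, and 11 of 134 lay to its left.

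The 3 gamma C-type genes had 3 different patterns. Pcdhgc3, the C-type gene reported as broadly expressed outside neurons, had a start peak in all 12 lists, with fold enrichments of 4.24 at 2i and 5.40 at D0, then 5.74 at D1, 5.65 at D2 and 11.5 at D3, then 7.46 at D4, 6.62 at D5 and 8.52 at D6, then 9.49 at D7 and 7.90 at D8, and lastly 8.24 at D10 with 7.80 at D15. Pcdhgc4 was called from D2 to D15, with 4.31 to 8.71, and not at 2i, D0 or D1. Pcdhgc5 had no start peak, but a site 3.15 kb right of its start (37822295 to 37823005) was called in all 12 lists with 2.69 to 6.75. Further right lay sites called in 10 lists each (37824821 to 37826741 and 37835391 to 37836801), and the shared right end of the gamma genes lies in a site called in 11 lists, all except D4 (37840533 to 37843178).

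The sites inside the 3 clusters together were 80, with 22 in alpha, 28 in beta and 30 in gamma. This is 8.51, 10.9 and 16.7 sites per 100 kb, against 4.63 on chromosome 18 between its first and last peak. The right flank of the window had 8.5 per 100 kb, near the alpha value, and the left flank 5.5. Of the 80 sites, 20% were called in 1 list only, against 43.7% of all sites, and 3.75% in all 12 lists, against 8.62%. At D4 90.9% of the alpha sites and 85.7% of the beta sites were called, against 38% of all sites. Part of each share is fixed, since sites called at D4 alone are counted only because of that list. Such sites were 22.7% of the alpha, 10.7% of the beta and 12.1% of all sites. At D10 or D15 9.09% of the alpha, 3.57% of the beta and 56.7% of the gamma sites were called, against 24.8% of all sites.

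By list, the alpha cluster had 7 of its 22 sites called at 2i and 5 at D0, then 8 at D1, 9 at D2 and 7 at D3, then 20 at D4, 13 at D5 and 3 at D6, then 10 at D7 and 3 at D8, and lastly 2 at D10 with 1 at D15. The beta cluster had 11 of 28 called at 2i and 8 at D0, then 2 at D1, 15 at D2 and 11 at D3, then 24 at D4, 12 at D5 and 3 at D6, then 12 at D7 and 2 at D8, and lastly 1 at D10 with 0 at D15. The gamma cluster had 12 of 30 called at 2i and 12 at D0, then 6 at D1, 21 at D2 and 18 at D3, then 14 at D4, 20 at D5 and 10 at D6, then 25 at D7 and 23 at D8, and lastly 17 at D10 with 11 at D15. Alpha and beta thus had their highest number at D4 and gamma its highest at D7, the longest list. Of all sites 31.7% were called at 2i and 27% at D0, then 20.9% at D1, 25.2% at D2 and 27% at D3, then 38% at D4, 29% at D5 and 21.6% at D6, then 44.6% at D7 and 34.9% at D8, and lastly 20.2% at D10 with 19.5% at D15.

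Few sites of the clusters were gained late. Called at both D10 and D15 and at neither 2i nor D0 were 2 sites of 80 (2.5%), those at the starts of Pcdhga2 (37668801 to 37669406) and Pcdhgc4 (37814459 to 37815861), against 3.8% of all sites. Early-lost sites numbered 7 of 80 (8.75%), against 9.56%, and they were 1 with the −log10 q minimum of 5 and 2 with equal numbers of peaks. These were the Pcdhac1 site, the Pcdhga8 start site (37725656 to 37726316), the Pcdhb11 start site (37421401 to 37421998) and the inner sites of Pcdhb13 (37444117 to 37444851), Pcdhb14 (37449456 to 37450108), Pcdhb18 (37491214 to 37491866) and Pcdhb19 (37498629 to 37499358). Transient sites, called in 2 or more lists in a row between D1 and D8 but at none of 2i and D0 and neither of D10 and D15, were 14 of 80 (17.5%), against 14.7%. All 3 shares over the 80 sites are near the background. By cluster, early-lost sites were 1 in alpha (4.55%), 5 in beta (17.9%) and 1 in gamma (3.33%). Both late-gained sites were in gamma, 6.67% of its sites. Transient sites were 22.7% of alpha, 17.9% of beta and 13.3% of gamma sites. These shares rest on few sites, and differences between clusters were not tested.

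Summits per 1000 peaks of a list take account of list length. Alpha held 0.174 per 1000 peaks at 2i (Wilson 95% interval 0.0881 to 0.343), 0.357 at D4 (0.231 to 0.551) and 0.0276 at D15 (0.00487 to 0.156). Beta held 0.239 at 2i (0.133 to 0.428), 0.464 at D4 (0.317 to 0.680) and 0.0373 at D8 (0.0102 to 0.136), and no beta summit was called at D15. Gamma held 0.261 at 2i (0.149 to 0.456), 0.285 at D4 (0.176 to 0.464) and 0.386 at D15 (0.230 to 0.648). The intervals cover counting error only. D4 is the highest list of alpha and of beta, and D15 and D8 are at or near their lowest. These lists were picked after the counts were seen, so no contrast is drawn from whether intervals overlap. Gamma was highest outside them, with 0.553 at D3 and 0.551 at D10. The flanks of the window together held 0.304 at 2i, 0.339 at D4 and 0.635 at D15.

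**Figure D4:**
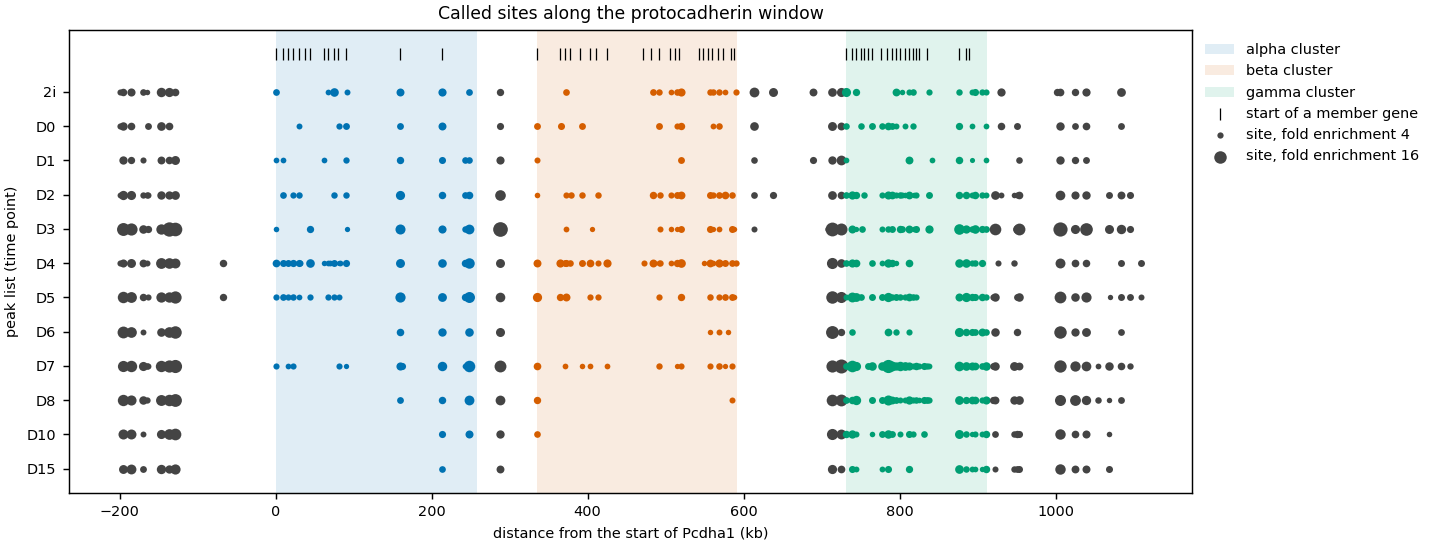
Sites called in each peak list (rows) by their distance in kb from the start of Pcdha1, with cluster spans shaded, member starts as ticks and dot area showing the authors' fold enrichment within that list. The alpha and beta arrays hold the most sites at D4, 20 and 24, and the fewest at D15, 1 and 0, while the gamma array still holds 11 sites at D15.

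The sites with the highest fold enrichment in any list lay between the clusters and at the neighbouring genes. This order sets values of different lists side by side, and most of these values are from D3. Ranked within its own list, the Pcdhga7 start peak at D7, with 0.848% of peaks higher, stood above some of them. At D3, 1.8% of peaks exceeded the Zmat2 site and 2.2% the Diaph1 site described below. The gap between alpha and beta held 1 site in 76.1 kb (37217546 to 37218492). It lies 29.3 kb right of the alpha cluster and was called in all 12 lists, with fold enrichments of 5.22 at D0 to 22.0 at D3, which 0.832% of D3 peaks exceeded. Inside the alpha cluster, right of the last start, a site 35.0 kb right of the Pcdhac2 start (37178035 to 37179078) was called in 10 lists, all except D0 and D15, with 4.48 to 13.6. Enhancers of the alpha cluster are known from this part of the locus, but whether these sites match them was not tested. Another site 29.0 kb right of the Pcdhac2 start (37172343 to 37172820) was called in 6 lists, D1 to D5 and D7.

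The gap between beta and gamma held 6 sites. The site 6.02 kb left of Pcdhga1 (37655539 to 37656193) was called in all 12 lists, with 5.56 at D6 to 20.1 at D7, which 0.246% of D7 peaks exceeded. Another all-list site (37643767 to 37644675) lies at an end of Taf7, which encodes a subunit of the general transcription factor TFIID, and had 7.14 to 19.6. A site 118 kb left of the gamma cluster (37543355 to 37544204) was called from 2i to D3 and in no later list, with its highest enrichment, 9.88, at 2i.

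The neighbouring genes were called in more lists than the members. All 15 named protein-coding neighbours in the window had a summit within 1 kb of either end in some list, and 11 had it in all 12 lists: Tmco6, Ndufa2, Ik, Hars, Hars2, Zmat2, Taf7, Diaph1, Hdac3, Rell2 and Fchsd1. These counts use both ends, since the strand of genes on chromosome 18 was not in the tables used, and so favour the neighbours over members. The left flank had 11 sites, with 4 called in all lists, the tallest of them at Zmat2 (36793469 to 36794398) with 21.0 at D3. The right flank had 17 sites, with 3 called in all lists, the tallest at Diaph1 (37934831 to 37935781) with 20.7 at D3. Of the right-flank sites 4 were gained late, among them a site 10.4 kb right of the gamma cluster (37851985 to 37852776), called at D2, D3 and from D5 to D15 with up to 13.9 at D3. Regulatory sites of the beta and gamma clusters are known to the right of the gamma cluster, and a match was not tested.

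The solitary relatives of these genes were mostly called throughout. Of 12 non-clustered protocadherins, single genes elsewhere in the genome that also encode adhesion proteins, 11 had a start peak in some list and 8 in all 12 lists, namely Pcdh7, Pcdh8, Pcdh9, Pcdh10, Pcdh11x, Pcdh17, Pcdh18 and Pcdh19. Over the other protein-coding genes, the background for each set in this paragraph, 70.8% had it in some list and 48.4% in all 12. Of the remaining non-clustered protocadherins, Pcdh20 was called in 11 lists, Pcdh1 in 10, Pcdh15 at D4 only and Pcdh12 in none. Pcdh1, Pcdh11x and Pcdh12 had no known strand and were read at both annotated ends. Of 16 genes for factors known to loop or silence the clusters, 14 had a start peak in all 12 lists, among them Ctcf, the cohesin genes Smc1a and Smc3, the structural maintenance protein gene Smchd1 and the methyltransferase gene Dnmt3b. The other 2, Rad21 and Nipbl, were read at their outermost annotated ends and called in none. Of 39 Hox genes, also tandem arrays, 33 had a start peak in some list and 1 in all 12, with 28 at D3, 7 at D4, 29 at D7 and 9 at D15. The shares of the other protein-coding genes were 64.6% at D3, 62.2% at D4, 65.9% at D7 and 58.5% at D15. The strand was known for 9 of the 12 protocadherins, 11 of the 16 factor genes and 22 of the 39 Hox genes. The rest were read at both annotated ends, which can miss a promoter.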

How the data were processed

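The 12 ATAC-seq peak lists, 1 per time point, come from MACS2 2.1.1, with Picard, SAMtools 1.5, Bowtie2 2.3.2 and cutadapt 2.10 named beside it and mm10 as the build, per the submitters' processing notes. Settings, read depth and how replicates were combined are not stated there. The deposited columns used were the fold enrichment, a linear ratio given by the authors' peak caller, the −log10 of the p-value and q-value by the authors' caller, and the summit offset deposited with each interval. All lists end near a q of 0.05.

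Summits were start plus offset, written 1-based. A site is a run of intervals of any list that overlap by at least 1 bp, and lies at the highest summit of its first list. Starts of 17273 other protein-coding genes came from a RefSeq promoter table (GRCm38.p6), counting any annotated start, of which 14512 genes had 1. Genes outside it were read at both ends, which can miss a promoter. No sequence of this locus was printed or searched. The scripts (Python 3.11.15, numpy 2.4.6, pandas 2.3.3, scipy 1.17.1) were tested on simulated lists. No p-value was computed. Intervals are Wilson 95%.

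The gene family, and so its members, and the gene lists were chosen with earlier results of these data known, while the rule that finds the members uses only names and positions. Named members are those with a start peak in any list, the C-type genes and the first and last of each cluster, and named sites are those of the clusters called in 6 or more lists, classed as lost or gained, or tallest in their segment, of which the main ones are printed. Alternatives were stricter peaks (−log10 q of at least 5), equal list lengths, other distances, other site rules, a 100 kb flank, and each list left out.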

Additional observations from a re-analysis of the deposited data

How the results depend on the processing

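No paired analysis was possible because both replicates of a time point share 1 peak list. Counts are called moved here when they changed by more than 1.5 times. With a −log10 q of at least 5 the alpha cluster had 13 sites in place of 22 and the beta cluster 16 in place of 28, early-lost sites of the window numbered 3 in place of 11, members with an inner summit 13 in place of 28, and beta genes with it 10 in place of 19. With equal numbers of peaks per list alpha had 12 sites, early-lost sites numbered 6 and members with an inner summit 15. Start peaks in all 12 lists were kept by 1 member in place of 2 under each of these settings and when the interval had to cover the start. The cause was not tested beyond the fewer peaks these settings hold. Leaving out 1 list gave 106 to 115 sites in the window, 17 to 22 in alpha, 25 to 28 in beta, 29 to 30 in gamma, 40 to 41 members with a start peak, 2 to 3 with it in all remaining lists, and inner summits in 22 to 28 members and 17 to 19 beta genes. Inside the 3 clusters, early-lost sites numbered 1 with the stricter peaks and 2 with equal lists in place of 7, and all-list sites 1 in place of 3 with the stricter peaks. Inner summits were found in 1 alpha gene with the stricter peaks, 0 with equal lists and 2 without the D4 list in place of 6, and in 5 gamma genes in place of 3 with a stretch of 1 to 3 kb. Of 36 start counts by cluster and list, 17 moved with the stricter peaks, 10 with equal lists, 6 when the interval had to cover the start, 6 within 2 kb and 0 within 500 bp. Of 359 alternative values in all, 302 stayed within 1.5 times and 57 moved. Without replicates or depth, calls cannot be ranked between lists.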
